A study of Mus musculus with 15 samples.

Results

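Imprinted genes are described here in the striatum of mouse pups whose mothers breathed aerosols of paraquat, titanium dioxide (TiO2) nanoparticles or a mixture of both while pregnant. The 44 genes were chosen by name, as well-known imprinted genes of the mouse, and 38 of them, from 18 loci, had a row in a table of 15569 genes. Rtl1, Dio3, Snurf, Peg12, H19 and Phlda2 were not analysed here. Of the 38 genes, 10 are known for expression from the maternal copy and 19 from the paternal copy. The remaining 9 are best known for imprinting in only some transcripts or tissues and are called mixed below. The grouping is general and does not state which copy is used in striatum. The rule that names the genes uses no measured value.

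Genomic imprinting marks a gene by the parent it came from, so that the copy from the mother and the copy from the father are not used alike. The mark is DNA methylation laid down in the egg or the sperm at a control region, and it is kept through the divisions of the embryo by proteins such as ZFP57, TRIM28 and DNMT1. Imprinted genes lie in clusters, and a long RNA such as Meg3, Kcnq1ot1, Airn or Peg13 often comes from the same cluster as protein-coding genes of the other parental copy. In brain, imprinted genes are known for roles in growth, in hypothalamic function and in maternal care. Loss of paternal expression from the human counterpart of the Snrpn cluster gives Prader-Willi syndrome, and loss of maternal UBE3A gives Angelman syndrome.

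All pups were of the inbred strain C57Bl/6J and were sampled at postnatal day 14. The control group, labelled untreated, had 4 libraries, the paraquat group 3, the TiO2 group 4 and the mixture group 4. Paraquat is a redox-cycling herbicide and TiO2 a particulate pigment. The sources used here give no dose, gestational timing, sex, litter or dam. They do not state that each library is its own animal, and the p-values therefore reflect the scatter among these libraries alone, part of which may be technical. Xist, given below, was high in some and low in other libraries of every group. The libraries of a group thus cannot all come from the same animal. In an inbred strain the parental copies have the same sequence, and the table gives 1 value per gene, so parental origin was not measured and "maternal" and "paternal" below are background knowledge. The tissue is a mixture of cells, in which fewer cells of a type and less RNA per cell cannot be told apart.

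Each value is a number of reads scaled by the size factor of its library, called normalised signal below. Depth was 8690925 to 14207513 reads assigned to genes per library, with paraquat 3 the deepest, and no imprinted gene in the table was at 0 or under 3 reads in any library. The lowest value of any of the 38 genes was 4.16. Markers of striatal projection neurons were present in every library, with a summed signal of 105248 to 132322 over 18 genes, which fits the labelled tissue. Xist, expressed from the inactive X chromosome of females, was high in 7 libraries and low in the other 8, with both kinds in every group. The share of signal from mitochondrial genes was 19.7% to 21.8% in controls 16.8% to 18.5% with paraquat, 16.2% to 20.6% with TiO2 and 19.1% to 21% with the mixture, and TiO2 3 was the lowest library.

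The start regions of 4 of these genes are shown as examples. Of the 4, Meg3, Ndn and Zim1 changed with paraquat, and Peg3, the neighbour of Zim1, did not pass the test. Igf2 and Gnas, also called with paraquat, have several windows each and are not shown. Each window runs from 250 bases before to 50 bases after a gene start in RefSeq on GRCm38.p6, on the strand of the gene. Capitals mark each CpG, the base pair step that carries DNA methylation.
Meg3, chr12:109540746-109541045, plus strand: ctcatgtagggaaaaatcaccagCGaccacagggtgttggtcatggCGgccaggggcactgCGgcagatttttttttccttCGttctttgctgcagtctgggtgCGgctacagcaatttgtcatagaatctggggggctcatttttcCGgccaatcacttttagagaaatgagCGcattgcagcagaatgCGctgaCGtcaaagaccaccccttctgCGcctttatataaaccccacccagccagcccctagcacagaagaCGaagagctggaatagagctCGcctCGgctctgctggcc
Ndn, chr7:62348027-62348326, plus strand: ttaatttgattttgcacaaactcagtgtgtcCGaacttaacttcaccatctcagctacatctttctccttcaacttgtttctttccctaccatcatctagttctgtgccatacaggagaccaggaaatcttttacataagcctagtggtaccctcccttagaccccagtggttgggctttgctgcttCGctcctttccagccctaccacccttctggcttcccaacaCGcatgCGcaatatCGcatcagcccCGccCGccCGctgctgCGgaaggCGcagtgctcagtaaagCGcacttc
Zim1, chr7:6696383-6696682, minus strand: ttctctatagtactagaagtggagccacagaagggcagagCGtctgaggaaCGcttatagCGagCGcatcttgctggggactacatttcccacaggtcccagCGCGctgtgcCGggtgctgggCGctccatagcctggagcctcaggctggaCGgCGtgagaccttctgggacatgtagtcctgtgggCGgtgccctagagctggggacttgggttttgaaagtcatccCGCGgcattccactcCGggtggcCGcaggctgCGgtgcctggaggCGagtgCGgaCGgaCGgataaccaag
Peg3, chr7:6730370-6730669, minus strand: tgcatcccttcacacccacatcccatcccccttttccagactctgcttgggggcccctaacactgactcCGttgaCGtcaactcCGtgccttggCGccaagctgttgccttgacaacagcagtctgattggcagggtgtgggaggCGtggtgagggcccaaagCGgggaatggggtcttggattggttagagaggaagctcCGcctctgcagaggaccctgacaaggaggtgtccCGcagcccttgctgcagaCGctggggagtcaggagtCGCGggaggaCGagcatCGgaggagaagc

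The Meg3 window shown held 13 CpG, the Ndn window 11, the Zim1 window 20 and the Peg3 window 13. RefSeq gives Meg3 a second window, chr12:109545148-109545447, which held 1 CpG. Of 32851 RefSeq windows of the same length, 37.9% held at least 13 CpG and 26.5% at least 20. RefSeq windows were used for 30 of the 38 genes, 48 windows in all, and their median was 14.5 CpG against 7 over all windows. Impact, on chromosome 18, was left out of this count. The motif TGCCGC, known as the sequence that ZFP57 reads when it is methylated, was searched on both strands, its reverse being GCGGCA. It stood in 13 of the 48 windows (27.1%) and in 11.6% of all windows. The motif itself holds a CpG, and the higher CpG number of the 48 windows was not adjusted for. Overlapping windows of the same gene, as for Mest and Gnas, were counted separately. The Meg3 and Zim1 windows shown each held 1 match, and the Ndn, Peg3 and second Meg3 windows 0. The Peg3 window overlaps that of Usp29, which starts in the other direction at chr7:6730333-6730632 on the plus strand with 17 CpG. Methylation was not measured, and a match is a description of letters only.

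As a group, imprinted genes were well expressed in striatum. Levels between genes were compared as mean normalised signal over the 15 libraries per kilobase of exon. The median of the 38 genes was 92.7 per kilobase, against 39.7 over all genes, and 23 of the 38 lay above that value. Meg3, the long maternal RNA of the Dlk1-Dio3 cluster, stood first with 1647 per kilobase, at percentile 99.1 of all genes. It was followed by Snrpn, which encodes a splicing protein, with 1015 per kilobase, and by Nnat, the neuronal membrane proteolipid neuronatin, with 932. Gnas, the stimulatory G protein subunit that activates adenylyl cyclase, had 662 per kilobase. Then came Blcap at 521, Peg13 at 359, Ndn at 329 and the zinc finger gene Peg3 at 294. The lowest were the maternal zinc finger gene Zim1 at 5.35 per kilobase, the growth factor Igf2 at 3.65, the RNA Kcnq1ot1 at 3.57 and the ubiquitin ligase adaptor Asb4 at 3.09. Kcnq1ot1 is annotated as a single exon of 93092 bases, which lowers its value per kilobase.

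Few neighbours in this order stood apart. When the 38 genes were ranked by level, the ranges of neighbouring genes over libraries overlapped in 34 of 37 pairs. The 3 pairs that did not overlap were Meg3 above Snrpn, Blcap above Peg13, and Kcnk9, a potassium channel, above Mirg. Genes of the same cluster differed widely in level. Peg3 and Usp29 start 146 bases apart in opposite directions and had 294 and 37.6 per kilobase. Peg10, a gene derived from a retrotransposon, and Sgce, the epsilon-sarcoglycan gene of myoclonus dystonia, start 98 bases apart and had 199 and 33.3 per kilobase.

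The genes also differed in how steady they were between libraries of a group. The pooled within-group standard deviation (SD) on the log2(signal + 1) scale had a median of 0.161 over the 38 genes, against 0.177 over all genes. It was lowest for Impact (0.0653), a regulator of translation, and for Peg3 (0.0657), Sgce (0.0744) and Meg3 (0.0770). It was highest for Dlk1 (0.694), a Notch-family transmembrane protein, for Calcr (0.684), the calcitonin receptor, and for Asb4 (0.588), and these 3 were the only genes above 0.5. Igf2 followed with 0.499 and Peg10 with 0.361. Peg10 stood out among genes of its level: its control libraries had 1289.8, 859, 1809.7 and 824 in signal.

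**Figure D1:**
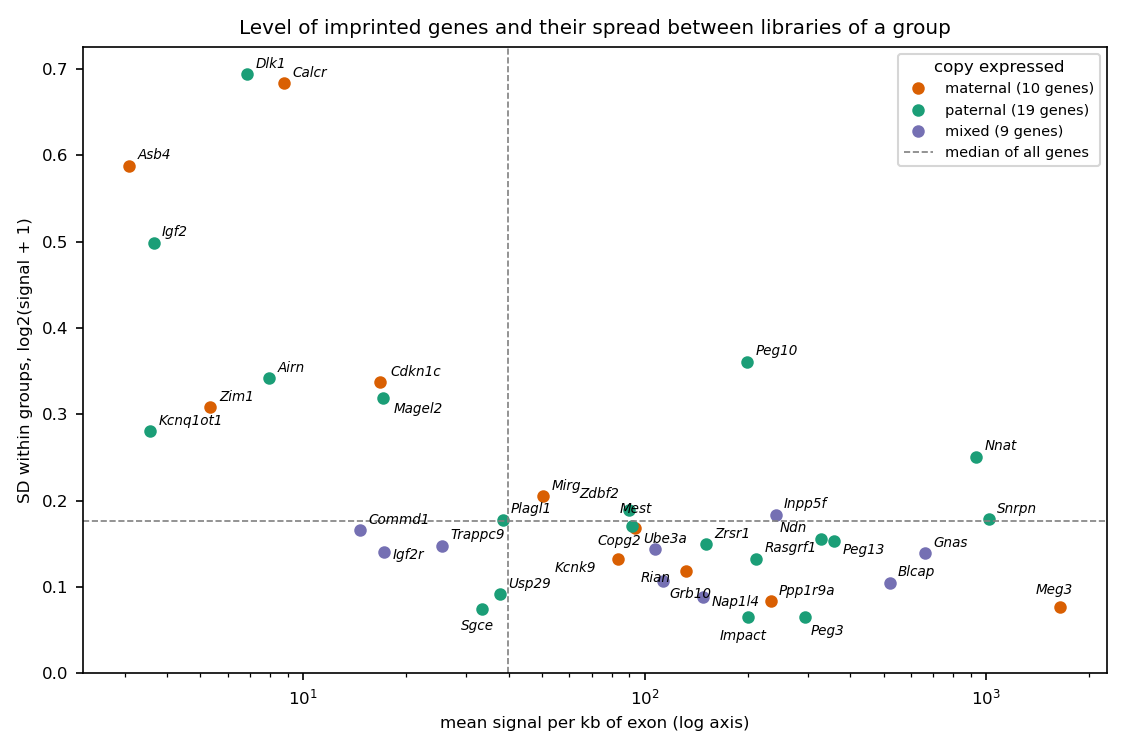
Mean normalised signal per kilobase of exon over 15 libraries (x axis, log scale) against the SD of log2(signal + 1) within groups (y axis) for the 38 imprinted genes, coloured by the parental copy known to be expressed. Dashed lines are the medians of all genes (39.7 per kilobase and 0.177). Meg3 is far to the right with an SD of 0.0770, and Dlk1, Calcr, Asb4 and Igf2 are at the upper left.

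Paraquat changed 5 of the 38 imprinted genes (13.2%), with Zim1, Ndn, Igf2 and Gnas higher and Meg3 lower than in controls. Over all 15556 genes tested, 10.4% were called by the same rule, an adjusted p under 0.05 in limma (6.34% higher and 4.06% lower), so the share among imprinted genes was near the background. By known origin, the calls were 2 of 10 maternal genes in opposite directions (Zim1 and Meg3), 2 of 19 paternal genes (Ndn and Igf2) and 1 of 9 mixed genes (Gnas). The median log2 change of the 38 genes was 0.0753, against -0.00668 over all genes, and the median size of change without regard to sign was 0.162 against 0.178. At an unadjusted p under 0.05, 12 of the 38 passed. The share of all genes at that unadjusted threshold was not counted, here or for the unadjusted counts below.

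Meg3 (ENSMUSG00000021268, chr12:109541001-109571726, plus strand, GRCm38) was the abundant gene that fell. Control libraries had 31110.4, 34854, 32473 and 30949 in signal, and paraquat libraries 27400.2, 28963 and 25239.8. Every paraquat library was below every control, and no other group was as low on average: TiO2 libraries had a mean of 29249 ± 1668 (SD, n = 4) and mixture libraries 29751 ± 943 (SD, n = 4). The difference between paraquat and control was -0.25 ± 0.07 on the log2 scale (SE, limma adjusted p = 0.033), or 0.841-fold. The call was lost when any of control 1, control 2, control 3, paraquat 1 or paraquat 3 was left out, with an adjusted p of up to 0.138, and with only the 2 groups in the fit (0.0796).

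The other RNAs read from the maternal copy of the same cluster did not pass the test. Rian, which hosts small nucleolar RNAs, had 2238 to 2747 in controls and 2221, 2443 and 1978 with paraquat, a difference of -0.18 ± 0.09 in log2 (SE, adjusted p = 0.195). Mirg, which hosts microRNAs, had 348 to 452 in controls and 390.0, 420.1 and 311 with paraquat (-0.10 ± 0.13, adjusted p = 0.681). RefSeq places 1 microRNA hairpin within Meg3, 3 within Rian and 14 within Mirg, and mature microRNAs were not measured by these libraries. Across the 3 RNAs paraquat 3 was the lowest of the 3 paraquat libraries.

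Dlk1, the paternal gene of that cluster, was low and uneven. Control libraries had 10.4, 12.4, 61.7 and 18.7 in signal, and paraquat libraries 64.5, 31.5 and 97.5. Control 3 thus lay within the paraquat range and the 3 other controls below it. The difference was 1.51 ± 0.47 in log2 (SE, limma adjusted p = 0.0552), with a 95% interval of 0.50 to 2.52, and it was not called. It was called in 6 alternatives: without control 3 (0.00032), without paraquat 2 (0.0196), with a replicate block (0.0133), with that block and a GC trend removed (0.0267), with voom (0.0332) and with a mean signal of at least 20 (0.0487). TiO2 libraries had 36.3, 34.6, 42.1 and 27.8 and mixture libraries 30.7, 35.8, 42.7 and 35.0, above the 3 lower controls and below paraquat 1 and 3. Neither was called (adjusted p = 0.303 and 0.49), but without control 3 both were (0.00745 and 0.0159).

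In the Peg3 cluster of chromosome 7 the maternal gene rose and its paternal neighbours did not pass the test. Zim1 (ENSMUSG00000002266, chr7:6671269-6696450, minus strand), whose start window is shown above, had 38.3, 22.7, 41.5 and 27.5 in controls and 67.5, 50.7 and 88.2 with paraquat. The 3 paraquat libraries were above all 12 others, the highest of which was TiO2 2 with 47.8. The change was 1.06 ± 0.22 in log2 (SE, limma adjusted p = 0.00397), or 2.09-fold. It was the only one of the 5 paraquat calls that held under all 29 alternatives run, with an adjusted p of at most 0.0397. Peg3, whose product is a zinc finger protein linked to maternal care, had 3722 to 4082 in controls and 4016, 3884 and 4263 with paraquat. Its difference was 0.04 in log2 with a 95% interval of -0.11 to 0.19 (adjusted p = 0.765). Usp29, a ubiquitin protease gene, differed by 0.05 (adjusted p = 0.738).

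In the Snrpn-Ube3a cluster, further along chromosome 7, Ndn rose. Ndn (ENSMUSG00000033585, chr7:62346569-62350262, plus strand) encodes necdin, a MAGE-family protein of postmitotic neurons. Control libraries had 1018, 1045, 1132 and 1149 in signal, and paraquat libraries 1533, 1292 and 1525. All 3 paraquat libraries were above the controls, but mixture 1 (1390.3) and TiO2 3 (1411) were also above paraquat 2. The change was 0.41 ± 0.10 in log2 (SE, limma adjusted p = 0.0145), or 1.33-fold, and the call was lost without paraquat 1 (0.0729) or paraquat 3 (0.0626).

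The other genes of the cluster did not follow with a call. Magel2, a MAGE-family gene next to Ndn, had 66.3, 81.5, 95.8 and 50.1 in controls and 109, 59.9 and 117 with paraquat (0.35 ± 0.20, adjusted p = 0.276), so paraquat 2 was within the control range. Snrpn differed by 0.10 ± 0.11 (adjusted p = 0.619). Ube3a, the maternal ubiquitin ligase gene, had 2251, 1679, 2064 and 2261 in controls and 1754, 1977 and 1728 with paraquat (-0.17 ± 0.11, adjusted p = 0.316). Ube3a overlaps Snhg14 on the opposite strand, and the sources used here do not state whether counting used strand, so reads from the pair cannot be told apart.

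Igf2 (ENSMUSG00000048583, chr7:142650766-142666816, minus strand), the fetal growth factor that in brain is made mainly by meninges, choroid plexus and vessels, was low in all groups. Controls had 7.25, 10.3, 14.9 and 17.7 in signal and paraquat libraries 20.8, 23.3 and 44.8. The groups did not overlap, and paraquat 3 was far above the other two. The change was 1.17 ± 0.33 in log2 (SE, limma adjusted p = 0.0261), or 2.25-fold. It was not called without control 1 (adjusted p = 0.0891) or paraquat 3 (0.16), nor with a trend of fold change on transcript GC content removed (0.0534).

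Markers of Igf2-bearing tissues were counted beside this gene. Of 10 markers of meningeal fibroblasts in the table, 0 were called with paraquat by limma (0 at 0 signal in any library), and their summed signal was 631 to 800 in controls and 635 to 807 with paraquat. For pericytes 0 of 10 were called. Over all genes 10.4% were called with paraquat. At an unadjusted p under 0.05 in limma, 3 meningeal, 2 pericyte and 3 choroid plexus markers passed. Of 7 choroid plexus markers 1 was called, the prolactin receptor Prlr (adjusted p = 0.028), although its paraquat and control libraries overlapped. The summed signal of the 7 was 896 to 1208 in controls and 1252 to 1721 with paraquat, so these ranges did not overlap. The part of choroid plexus RNA in the Igf2 result was not tested.

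Gnas (ENSMUSG00000027523, chr2:174284320-174346744, plus strand) rose with paraquat and with the mixture. Controls had 5603, 5803, 6802 and 6695 in signal, paraquat libraries 7056, 7632 and 9478, TiO2 libraries 6597, 7644, 7208 and 8039, and mixture libraries 8547, 7856, 8090.4 and 7973. Each paraquat and each mixture library was above each control, and TiO2 1 was within the control range. The change with paraquat was 0.37 ± 0.09 in log2 (SE, limma adjusted p = 0.0172), or 1.29-fold. With the mixture it was 0.39 ± 0.09 (adjusted p = 0.0299), or 1.31-fold, and with TiO2 0.25 ± 0.09, which was not called (0.091). The locus makes several transcripts that are imprinted in different ways, and the table gives their sum. When a trend of fold change with transcript GC content was removed, the paraquat change was 0.19 (adjusted p = 0.321) and the mixture change 0.34 (adjusted p = 0.105), and neither was called. The paraquat value thus fell by more than the mixture value did. Without control 1 they were 0.0611 and 0.103. The paraquat call was also lost without paraquat 3 (a change of 0.24, adjusted p = 0.119), and the mixture call without control 2 (0.0811) or mixture 1, 2 or 3 (0.0934, 0.0547 and 0.0798).

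**Figure D2:**
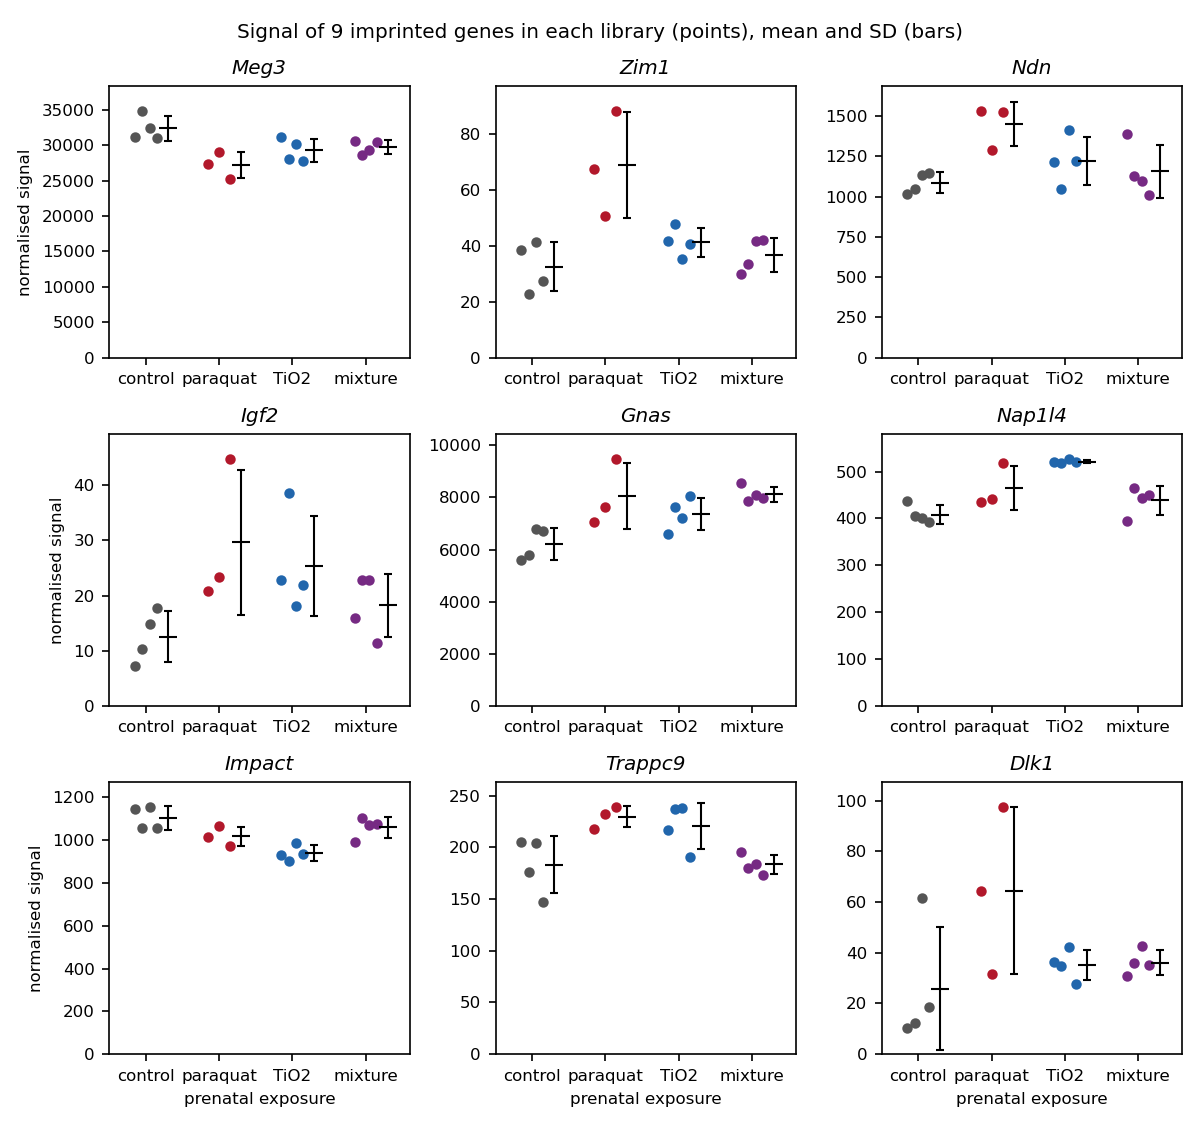
Normalised signal (y axis, from 0) in each library (points) of 4 groups (x axis) for the 8 genes called in any comparison and for Dlk1, with the group mean and SD as bars beside the points. Zim1 in the 3 paraquat libraries (50.7 to 88.2) is above all others, Nap1l4 in the 4 TiO2 libraries is at 518 to 527, and 1 control library of Dlk1 (61.7) is apart from the other 3.

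TiO2 changed 2 of the 38 genes (5.26%), Nap1l4 upward and Impact downward, against 6.4% of all genes tested, of which 4.3% were higher and 2.1% lower. The median log2 change of the 38 was 0.0243, against -0.0104 over all genes, and 9 of the 38 passed an unadjusted p under 0.05. No maternal gene was called by limma out of 10, where 2 had an unadjusted p under 0.05.

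Nap1l4 (ENSMUSG00000059119, chr7:143513579-143549106, minus strand), a histone chaperone gene at the edge of the Kcnq1 cluster, was nearly constant within the TiO2 group. TiO2 libraries had 519.8, 518, 527 and 520.1 in signal and controls 436, 405, 401 and 391. All 4 TiO2 libraries were above all controls and all mixture libraries (395 to 465). The change was 0.35 ± 0.08 in log2 (SE, limma adjusted p = 0.00967), or 1.28-fold, and it held under all 29 alternatives run, with an adjusted p of at most 0.0346. Paraquat 3, with 519, was as high as the TiO2 libraries, and paraquat 1 and 2 had 435 and 441.

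Impact (ENSMUSG00000024423, chr18:12955852-12992950, plus strand), a paternal gene whose product restrains the GCN2 kinase of the amino acid response, was lower with TiO2. Controls had 1148, 1055, 1154 and 1059 in signal and TiO2 libraries 932, 902, 988 and 937, with no overlap. The change was -0.23 ± 0.07 in log2 (SE, limma adjusted p = 0.0452), or 0.852-fold. This call sat at the threshold: it was lost in 15 of 29 alternatives, 11 of them single libraries left out, with adjusted p from 0.0117 to 0.311. The change was -0.12 with the GC trend removed. Among the libraries whose removal ended the call were each TiO2 library, with 0.0851, 0.126, 0.0515 and 0.0604 for TiO2 1 to 4. The others were control 1 (0.127), control 3 (0.105) and control 4 (0.0676), then mixture 2 (0.0545), mixture 3 (0.0557) and mixture 4 (0.0538), and paraquat 1 (0.0549).

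Igf2 was also high in the TiO2 group without a call. TiO2 libraries had 22.8, 38.6, 18.1 and 21.9 in signal, all above the highest control at 17.7, and the difference was 0.97 ± 0.30 in log2 (SE, limma adjusted p = 0.0543). It was called in 5 alternatives: with a replicate block (0.0435), with Xist as covariate (0.0431), and without control 4 (0.0445), paraquat 3 (0.0386) or mixture 4 (0.0464). Zim1 differed by 0.37 ± 0.20 (adjusted p = 0.282), Ndn by 0.17 ± 0.10 (0.308) and Meg3 by -0.15 ± 0.07 (0.202). Plagl1, a paternal zinc finger regulator of other imprinted genes, had 322, 254, 321 and 351 in controls and 276, 244, 226 and 277 with TiO2 (-0.28 ± 0.11, adjusted p = 0.127).

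The mixture changed 1 of the 38 genes (2.63%), Gnas, against 1.19% of all genes tested, of which 1.12% were higher and 0.0707% lower. The median log2 change of the 38 was 0.0645, against -0.00931 over all genes, and 5 of the 38 passed an unadjusted p under 0.05. Meg3, Snrpn, Mest and Copg2 did not overlap between mixture and control libraries but were not called. The share of all genes without such overlap was not counted, in this or any other comparison. Mest, a paternal hydrolase gene named for its expression in mesoderm, had 309.7, 249.7, 365 and 359 in controls and 387, 448, 387 and 414 with the mixture (0.36 ± 0.11, limma adjusted p = 0.103). Snrpn had 1726, 1692, 2278 and 2238 in controls and 2502, 2336, 2448 and 2322 with the mixture (0.29 ± 0.10, adjusted p = 0.225). Zim1 and Igf2 differed by 0.20 ± 0.20 (adjusted p = 0.765) and 0.52 ± 0.30 (0.525).

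**Figure D3:**
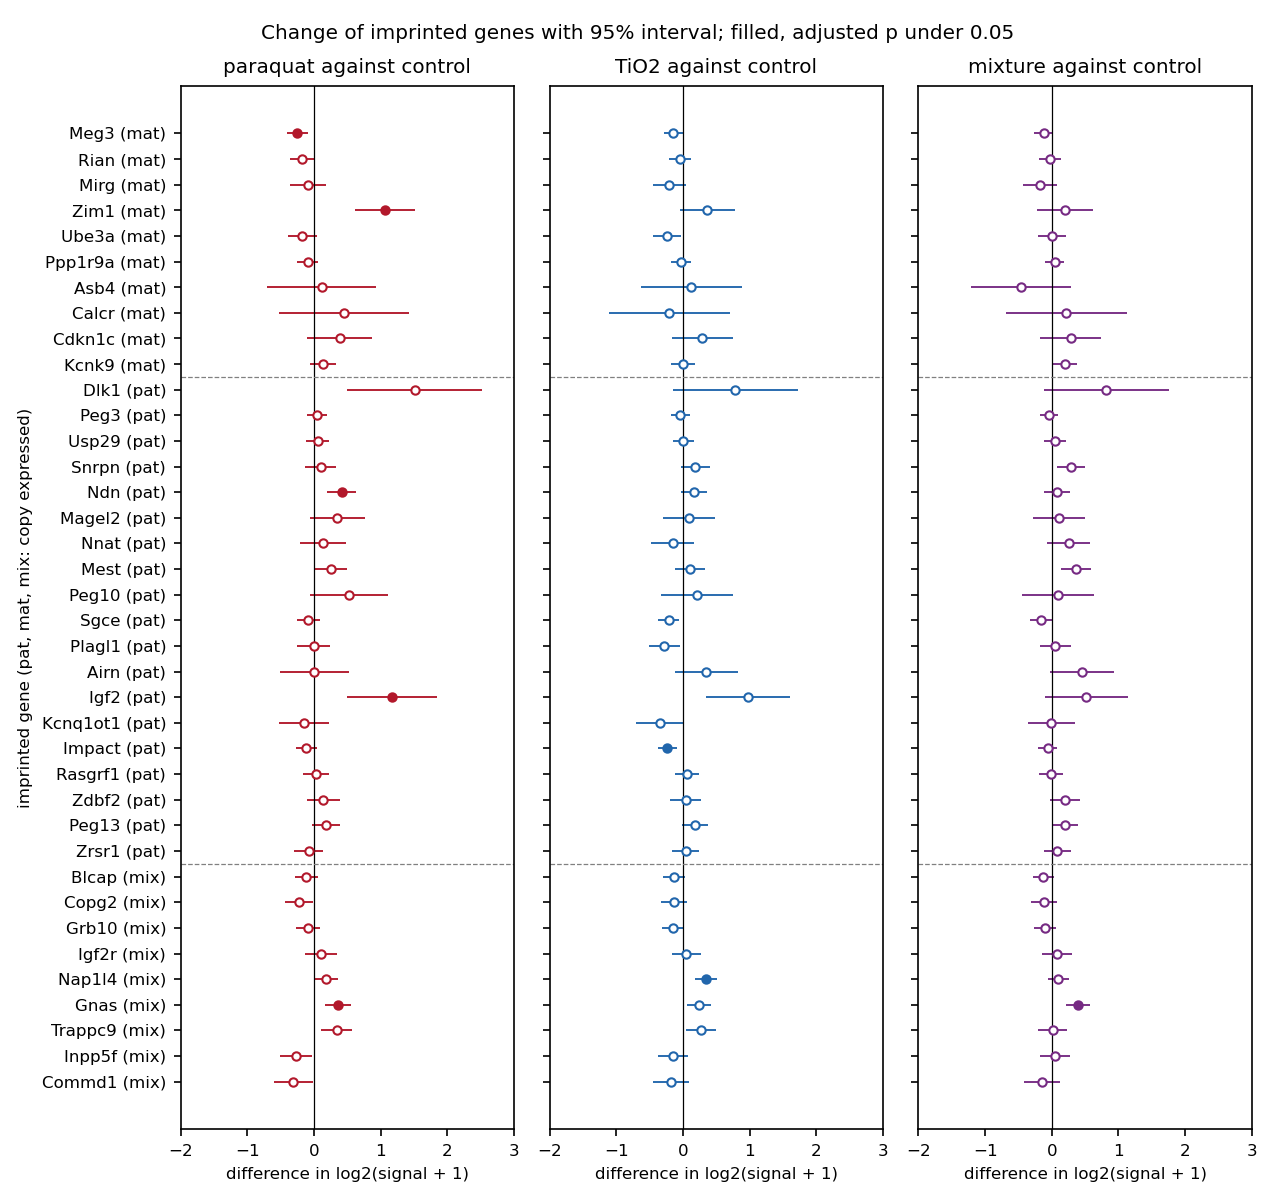
Difference from control in log2(signal + 1) (x axis) of the 38 imprinted genes (y axis, in blocks of maternal, paternal and mixed genes) for paraquat, TiO2 and the mixture. Points are limma estimates, lines are 95% intervals and filled points had an adjusted p under 0.05: 5 with paraquat, 2 with TiO2 and 1 with the mixture, all 3 against the same 4 controls.

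The 3 comparisons share the 4 control libraries, so a control that is low or high moves all 3 together. Comparisons that use no control library are those of the mixture with each single exposure. Between mixture and paraquat 0 of 38 genes were called by limma, against 0.00643% of all genes by the same rule. At an unadjusted p under 0.05, 4 of the 38 passed. The difference was negative for 3 of these 4, Zim1 (-0.87 ± 0.22 in log2, SE, adjusted p = 0.145), Trappc9 (-0.32 ± 0.12, 0.23) and Ndn (-0.33 ± 0.10, 0.194), and positive for Inpp5f (0.32 ± 0.12, 0.234). Mixture and paraquat libraries did not overlap for Zim1 and Trappc9. Between mixture and TiO2 0 of 38 genes were called, against 0% of all genes by the same rule. At an unadjusted p under 0.05, 8 of the 38 passed. For both comparisons the share of all genes at that unadjusted threshold was not counted. Nap1l4 was lower with the mixture by -0.25 ± 0.08 (adjusted p = 0.236) and Impact was higher by 0.17 ± 0.07 (adjusted p = 0.363). edgeR, DESeq2 and voom on recovered reads also called 0 of the 38 in both.

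Whether the effect of paraquat differed in the presence of TiO2 was tested as an interaction, the mixture value less the sum of both single effects. It was called for 5 of the 38 genes (13.2%), all negative, against 11.8% of all genes, of which 5.41% were positive and 6.36% negative. The 5 genes were Zim1 (-1.23 ± 0.30 in log2, SE, limma adjusted p = 0.0105), Igf2 (-1.62 ± 0.45, 0.0233), Trappc9 (-0.60 ± 0.16, 0.0178), Ndn (-0.50 ± 0.14, 0.0259) and Nap1l4 (-0.44 ± 0.12, 0.02). Markers of cell types gave interaction calls too: 9 of 16 oligodendrocyte markers, all negative (median -1.02), 3 of 13 astrocyte markers, all negative (median -0.311), and 6 of 18 striatal projection neuron markers, 5 positive and 1 negative (median 0.129). Their part in the 5 calls was not tested. For Zim1 the single effects added to 1.43 and the mixture effect was 0.20. For Igf2 they added to 2.14 and the mixture effect was 0.52. In both genes the mixture lay below the sum of the single exposures. The Zim1 call held under all 28 alternatives run, with an adjusted p of at most 0.0416. The Nap1l4 call was lost without paraquat 3 (0.0684), and the Trappc9 call with the GC trend removed (0.0841), also together with a replicate block (-0.37, 0.116). The Ndn call was lost without control 1 (0.0539), paraquat 1 (0.0749), paraquat 3 (0.0619), TiO2 3 (0.0579) or mixture 4 (0.0603). The Igf2 call was lost without control 1 (0.0511), paraquat 3 (0.0797), TiO2 2 (0.0545) or mixture 4 (0.0528). It was also lost with the GC trend removed (0.0548), and with that and a replicate block (0.0574).

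Trappc9 (ENSMUSG00000047921, chr15:72589620-73061204, minus strand), a vesicle-tethering gene linked to intellectual disability, was called in the interaction and in no comparison with control. Controls had 205, 176, 204 and 147 in signal, paraquat libraries 218, 232 and 239, TiO2 libraries 217, 237, 238 and 191, and mixture libraries 196, 180.1, 184 and 174. Both single exposures were above the control mean of 183, and the mixture mean was 184. Against control the change was 0.34 ± 0.12 with paraquat (limma adjusted p = 0.0608), 0.27 ± 0.11 with TiO2 (0.121) and 0.01 ± 0.11 with the mixture (0.981). With paraquat it was called without control 3 (0.0469) or with Xist as covariate (0.048). Peg13 (chr15:72805600-72810324, minus strand), a paternal RNA, lies within Trappc9 on the same strand, so reads of the 2 genes can be mixed by the counting. Peg13 had a mean of 1537 ± 169 (SD, n = 4) in controls, 1747 ± 286 (n = 3) with paraquat, 1745 ± 121 (n = 4) with TiO2 and 1762 ± 148 (n = 4) with the mixture, and it was not called (adjusted p = 0.268, 0.236 and 0.389).

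Several other loci gave no call in any comparison. In the Peg10 cluster, Peg10 had 1797, 1195 and 2017 with paraquat against 824 to 1809.7 in controls (0.52 ± 0.27 in log2, SE, limma adjusted p = 0.237), while Sgce, next to it, had 349, 356 and 377 against 352 to 413 (-0.09 ± 0.09, 0.563). Calcr in controls had 37.3, 17.5, 72.3 and 14.7 and with paraquat 46.6, 22.3 and 61.2. Control 3 was the highest control for Dlk1, Peg10, Calcr, Magel2 and Zim1, and paraquat 2 was the lowest paraquat library for the same 5 genes. Both of these libraries were high in Xist. Hypothalamic cells are known to express several of these genes, so markers of the hypothalamus and preoptic area were counted. Of 18 markers 5 were in the table, with a summed signal of 234 to 376 in controls, 358 to 502 with paraquat, 278 to 367 with TiO2 and 340 to 375 with the mixture. With paraquat 1 of these 5 was called, the stress hormone gene Crh (0.96 ± 0.22, adjusted p = 0.00877), and the median of the 5 was 0.481. Over all genes 10.4% were called with paraquat. Their part in the results for Dlk1, Zim1, Ndn and Peg10 was not tested.

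Pairs of overlapping genes on opposite strands were read with the same limit as Ube3a. Nnat lies within Blcap, an apoptosis-related gene, and with paraquat differed by 0.14 ± 0.17 in log2 (SE, limma adjusted p = 0.65), while Blcap differed by -0.11 ± 0.08 (0.411). Mest and Copg2, a coat protein gene of Golgi vesicles, overlap at their ends. Copg2 had 576, 618, 583 and 585 in controls and 504, 469 and 548 with paraquat, with no overlap (-0.22 ± 0.10, adjusted p = 0.164). Zrsr1, a splicing factor gene, lies within Commd1, a copper metabolism gene, which differed by -0.31 ± 0.14 (adjusted p = 0.157). The RNA Airn overlaps Igf2r, the receptor that clears IGF2. Igf2r had 146 to 166 in controls and 187, 171 and 143 with paraquat (0.10 ± 0.12, 0.608), and Airn 20.6 to 27.7 and 14.9, 34.5 and 26.3 (0.01 ± 0.25, 0.991).

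Of the growth-restraining genes, Grb10, an adaptor of insulin signalling, had a mean of 1089 ± 87.0 (SD, n = 4) in controls and 1029 ± 120.3 (n = 3) with paraquat (limma adjusted p = 0.57). Cdkn1c, a cell cycle inhibitor, had 29.7 ± 10.8 (SD, n = 4) in controls and 37.4 ± 4.89 (n = 3) with paraquat (0.312). Zdbf2, a paternal gene linked to feeding behaviour, differed by 0.14 ± 0.12 with paraquat (adjusted p = 0.482) and by 0.20 ± 0.11 with the mixture (0.499). Inpp5f, an inositol phosphatase gene, had 2062, 1895, 2318 and 2175 in controls and 1514, 1590.0 and 2189 with paraquat (-0.28 ± 0.12, 0.128). Ppp1r9a, Asb4, Kcnq1ot1, Rasgrf1 and Kcnk9 were not called in any comparison either.

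**Figure D4:**
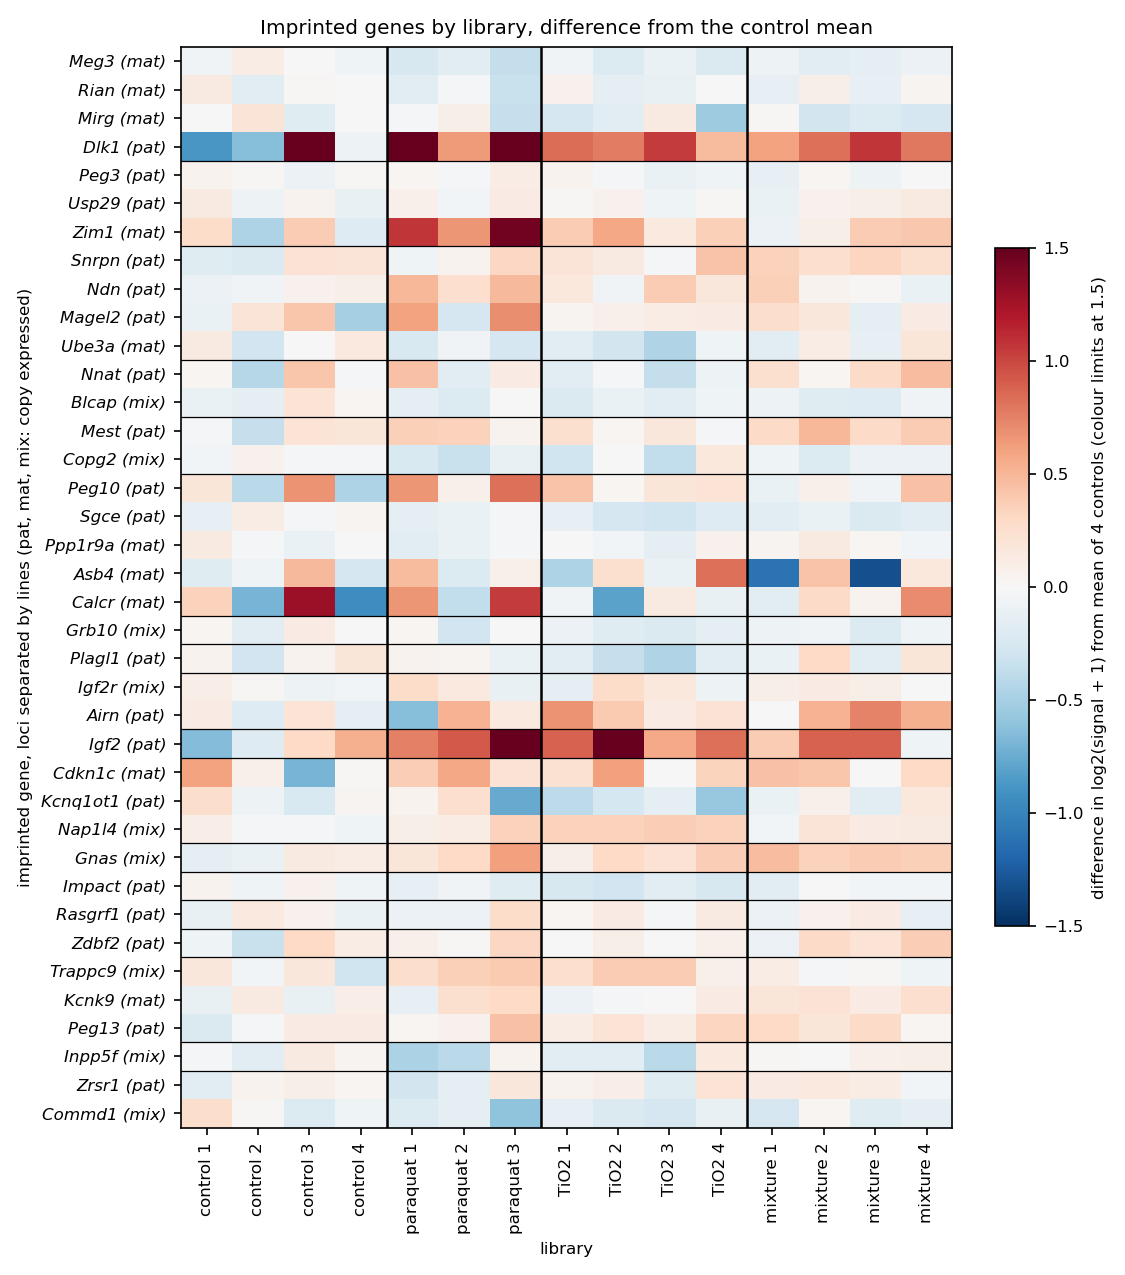
Difference of log2(signal + 1) from the mean of the 4 controls for each imprinted gene (rows, with loci separated by lines) in each of 15 libraries (columns, with groups separated by lines). Colours stop at 1.5, so deeper values of Dlk1 and Igf2 are not told apart. Zim1 and Ndn are red in all 3 paraquat libraries, Igf2 is red in all paraquat and TiO2 libraries, and Peg3 and Usp29 stay pale throughout.

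The proteins that keep and read DNA methylation marks were examined as a second list, of which 25 of 28 genes were in the table. With paraquat 2 rose and 1 fell (12% of the list), with TiO2 3 rose (12%) and with the mixture 0 were called by limma, where 2 had an unadjusted p under 0.05. Over all genes the shares were 10.4%, 6.4% and 1.19%. The list's median log2 change was -0.0516, -0.00866 and 0.00601, against -0.00668, -0.0104 and -0.00931 over all genes. Tet1, an enzyme that oxidises methylated cytosine, had 863, 567, 776 and 728 in controls, 1044, 943 and 1009 with paraquat and 1220.2, 1016, 1153 and 1196 with TiO2. All libraries of both single exposures were above all controls, by 0.46 ± 0.11 (SE, limma adjusted p = 0.00861) and 0.66 ± 0.10 (adjusted p = 0.000215) in log2. Tet2 rose with TiO2 (0.32 ± 0.09, 0.0359), and Suz12, a subunit of Polycomb complex PRC2, fell with paraquat (-0.34 ± 0.09, 0.0177). With the mixture Tet1 differed by 0.38 ± 0.10 (0.0537). The interaction was called for 4 of the 25 (16%, against 11.8% of all genes), among them negative for Tet1 (-0.74 ± 0.14, 0.00321) and Tet2 (-0.42 ± 0.13, 0.0409) and positive for Suz12 (0.53 ± 0.12, 0.00771). The 3 proteins best known for imprint upkeep were not called: over the 15 libraries Zfp57 ranged from 68.5 to 152 in signal, Trim28 from 419.7 to 552 and Dnmt1 from 232 to 306.

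A further list of imprinted genes, less studied or imprinted mainly in placenta, had 23 of 33 genes in the table. With paraquat 0 rose and 2 fell (8.7%, against 10.4% of all genes): Slc22a3, an organic cation transporter of the Igf2r cluster (-0.53 ± 0.13 in log2, SE, limma adjusted p = 0.0146), and Casd1, a neighbour of Sgce (-0.34 ± 0.09, adjusted p = 0.0233). With TiO2 and with the mixture limma called 0 of 23, where 4 and 1 had an unadjusted p under 0.05. The median log2 change with paraquat was 0.0282. The interaction was called for 2 of 23 (8.7%, against 11.8% of all genes), Casd1 (0.46 ± 0.13, 0.0234) and Tssc4 (-0.64 ± 0.18, 0.0271).

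Calls among cell type markers stand beside the calls above. Over all genes tested, 10.4% were called with paraquat, 6.4% with TiO2 and 1.19% with the mixture. With paraquat the shares called were 81.2% of oligodendrocyte, 38.9% of striatal projection neuron and 15.4% of astrocyte markers. For cortical and for thalamic and septal markers it was 27.3% each. With TiO2 they were 23.1% of astrocyte, 12.5% of oligodendrocyte, 11.1% of striatal projection neuron and 8.33% of microglial markers. With paraquat oligodendrocyte markers were higher in 13 of 16 genes (median log2 change 0.853), with a summed signal of 42498 to 63293 in controls, 93888 to 107813 with paraquat, 58335 to 91862 with TiO2 and 50318 to 86857 with the mixture. Striatal projection neuron markers were lower in 7 of 18 (median -0.215), with 124066 to 132322 in controls and 105248 to 115322 with paraquat. Cortical neuron markers were higher in 3 of 11 (median 0.72), thalamic and septal markers were higher in 2 and lower in 1 of 11 (0.0885), and astrocyte markers were higher in 2 of 13 (0.222). Limma called 0 of 12 microglial and 0 of 12 endothelial markers with paraquat, where 2 of each had an unadjusted p under 0.05. With TiO2, where Nap1l4 and Impact were called, 3 of 13 astrocyte markers (median 0.188), 2 of 16 oligodendrocyte markers (0.475) and 1 of 12 microglial markers (0.071) were higher, and 2 of 18 striatal projection neuron markers (-0.0739) were lower. With the mixture, where Gnas was called, 0 of 11 cortical neuron markers were called by limma, but 9 had an unadjusted p under 0.05 and their median was 1.34. Their summed signal was 2438 to 3760 in controls, 3342 to 7113 with paraquat, 2997 to 4315 with TiO2 and 4284 to 6015 with the mixture. Of 10 meningeal fibroblast markers 1 was called with the mixture, the collagen gene Col1a1 (adjusted p = 0.0206). No marker on any of these lists was at 0 in any library. The part of cell makeup in the changes of Meg3, Zim1, Ndn, Igf2, Gnas, Nap1l4 and Impact was not tested.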

How the data were processed

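Striatal RNA of 15 libraries was sequenced on a NextSeq500 after library preparation with the Lexogen SENSE kit, per the labels' protocols. Bowtie2 2.3.2.2, DESeq2 2.1.8.3 and build mm10 are named in the submitters' processing notes. The sources used here do not state the counting tool, annotation, use of strand or gene filter. The deposited values are a normalised signal, read counts divided by a size factor per library: values were whole multiples of a step of 0.6585 to 1.085, so reads were recovered by division, with 100% of values whole within 0.001. In 4 libraries the step was within 1% of 1, which leaves no check of recovery there.

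Signals were tested as log2(signal + 1) with limma 3.58.1 in R 4.3.3 (trend and robust) over all 15 libraries and 4 groups, with Benjamini-Hochberg adjustment over 15556 of 15569 genes, 13 having been removed by edgeR's filter on low counts. Fold changes are on that scale and come out too small for genes of low signal. A call is an adjusted p under 0.05. Alternatives were a pseudocount of 0.5 or 5, no filter, a mean signal of at least 20, TMM scaling, voom, edgeR 4.0.16 and DESeq2 1.42.0 on recovered reads, limma without trend and robust, only the groups compared, a replicate block, removal of a GC trend, both of these, Xist as covariate, and each library left out. The fit was tested on simulated data, with 100 genes changed at each size. A log2 change of 0.5 was recovered in 38% of genes with paraquat, 58% with TiO2 and 55% with the mixture. For a change of 1 the shares were 88%, 89% and 97%. Of all calls, 8.03%, 8.12% and 1.94% were false.

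Named genes were all called imprinted genes, a list of well-known ones whatever their result, and up to 3 called genes of each other list by smallest p. A gene of the DNA methylation list is counted there but not reported here. Imprinted genes, marker lists and alternatives were chosen with earlier results of these data known. All symbols matched GENCODE M21 (GRCm38), the source of gene positions and exon lengths, and promoter windows came from RefSeq (GRCm38.p6).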

Additional observations from a re-analysis of the deposited data

Results flagged for a closer look

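In 4 of the 114 sets of 4 libraries examined, 1 library lay far from the other 3, where chance alone gives about 1 in 20. Dlk1 in control 3 had a signal of 61.7, against 10.4 to 18.7 in the other controls. Copg2 in mixture 2 had 513 (others 554 to 562), Grb10 in mixture 3 had 945 (others 1032 to 1046) and Zrsr1 in mixture 4 had 649 (others 721 to 734).

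The effect of paraquat differed with and without TiO2, by the interaction test in limma, for Zim1 (-1.23 in log2, adjusted p = 0.0105), Ndn (-0.50, 0.0259), Igf2 (-1.62, 0.0233), Nap1l4 (-0.44, 0.02) and Trappc9 (-0.60, 0.0178). These were 13.2% of the 38 genes, against 11.8% of all genes tested. Only the Zim1 call held under every alternative run.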

How the results depend on the processing

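No result changed direction under any alternative. Against 5 genes called with paraquat, 2 with TiO2, 1 with the mixture and 5 in the interaction, limma without trend and robust called 1 (Zim1), 1 (Nap1l4), 0 and 3 (Zim1, Nap1l4 and Trappc9), and removal of the GC trend 3, 1, 0 and 3. With only the groups compared TiO2 gave 1. The replicate block with the GC trend removed gave 1 with TiO2, 2 with the mixture and 3 in the interaction. The cause was not tested. Leaving out 1 library at a time gave 2 to 7 calls with paraquat (2 without control 1 or paraquat 3), 1 to 4 with TiO2, 0 to 2 with the mixture and 3 to 8 in the interaction. Mixture against paraquat and against TiO2 gave 0 calls under every alternative run. Correlations of deviations gave no clear sign that replicate numbers pair the samples, but they cannot exclude it. In 21 same-numbered pairs the correlations ran from -0.186 to 0.271 with 8 above 0.1, and other pairs ran from -0.338 to 0.337. The fit with a replicate block called 6, 3, 1 and 5 genes and 0 in both mixture comparisons with single exposures. Depth limits the genes of lowest mean signal, which were Asb4, Igf2, Airn, Cdkn1c, Calcr, Dlk1 and Zim1.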
